A study of Mus musculus with 6 samples.

Results

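The collagen genes, which encode the chains of the main structural proteins of skin, were described across the cells of mouse skin. They were chosen by name, as every gene column beginning with Col, a type number, the letter a and a chain number, with Col17a1 left out. This gave 41 of the 16150 genes in the tables. Skin was taken from 6 mice of the NINJA strain, aged 6 to 12 weeks. Each mouse had received 4-OH-Tam on the sampled area, and a 10x Genomics 5' kit gave 1 library per mouse. The 3 groups, with 2 mice each, were NO_AG, AG and AG_CPI, which the series' design names Ag OFF, Ag ON and Ag ON/CPI. The labels expand neither NINJA nor CPI. Before sequencing, every animal had been checked for the expected visible skin phenotype and for P14 CD8 T cells in the skin, so the mice were selected on their condition. The labels give no sex, batch or date, and p-values measure the spread between these mice only.

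A collagen molecule is a triple helix of chains, which can be the same or the products of different genes. Fibril-forming collagens build the ropes of the dermis, beaded-filament collagen VI links cells to that mesh, and network-forming collagen IV makes the sheet of basement membranes. Collagen VII anchors the epidermal basement membrane to the dermis, and the multiplexins XV and XVIII sit in basement membrane zones. In skin, dermal fibroblasts are known as the main source of fibrillar collagen, and keratinocytes as a source of collagen VII. By these classes the 41 genes comprised 10 fibril-forming, 9 network-forming, 6 beaded-filament, 8 fibril-associated, 1 anchoring-fibril, 3 transmembrane, 2 multiplexin and 2 other genes.

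The regions just before the transcription starts of 4 genes are shown because they stand for 3 sources of collagen RNA in these data: Col3a1 and Col15a1 were highest in fibroblast-like cells, Col7a1 in keratinocyte-like cells and Col27a1 in dendritic epidermal T-like cells. The sequences are from RefSeq, build GRCm38.p6, and run over the 250 bases before the start. Col3a1 lies at chr1:45311288-45311537, Col15a1 at chr4:47207762-47208011, Col7a1 at chr9:108953336-108953585 and Col27a1 at chr4:63215162-63215411, all on the plus strand. None overlaps an exon of the GENCODE annotation of that build, and the Col27a1 window lies inside the annotated gene, downstream of its first start. Capitals mark the 3 motifs searched, which do not overlap in these windows. The NF-Y box is CCAAT, which reads as its reverse complement where it lies on the other strand. The core promoter motif searched was TATAAA. The motif of Sp1-type factors was GGGCGG. Both strands were searched for each.
Col3a1: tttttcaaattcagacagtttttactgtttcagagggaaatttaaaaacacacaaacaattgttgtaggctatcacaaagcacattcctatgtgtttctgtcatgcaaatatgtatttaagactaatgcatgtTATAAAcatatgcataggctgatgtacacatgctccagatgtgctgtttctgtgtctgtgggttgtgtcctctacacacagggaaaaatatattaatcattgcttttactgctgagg
Col15a1: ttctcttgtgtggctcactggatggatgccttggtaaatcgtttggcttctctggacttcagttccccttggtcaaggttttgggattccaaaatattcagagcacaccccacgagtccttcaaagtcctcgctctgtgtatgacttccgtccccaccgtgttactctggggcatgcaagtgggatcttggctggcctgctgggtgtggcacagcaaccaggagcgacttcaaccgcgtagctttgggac
Col7a1: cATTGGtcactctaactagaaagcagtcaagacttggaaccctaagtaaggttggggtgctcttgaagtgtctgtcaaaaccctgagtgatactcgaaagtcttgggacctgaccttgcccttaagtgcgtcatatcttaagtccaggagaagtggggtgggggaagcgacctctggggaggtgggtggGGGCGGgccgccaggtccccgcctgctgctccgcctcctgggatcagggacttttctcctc
Col27a1: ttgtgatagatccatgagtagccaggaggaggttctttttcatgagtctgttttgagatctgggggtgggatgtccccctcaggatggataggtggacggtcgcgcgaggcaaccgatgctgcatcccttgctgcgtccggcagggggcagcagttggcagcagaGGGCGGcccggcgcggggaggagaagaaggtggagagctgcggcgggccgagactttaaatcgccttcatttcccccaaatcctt
The Col3a1 window held 1 TATAAA, Col7a1 held 1 CCAAT and 1 GGGCGG, Col27a1 held 1 GGGCGG, and Col15a1 held none of the 3. Windows were given for 33 of the 41 genes, Col1a1 not among them. Of those 33, CCAAT was in 12, TATAAA in 4 and GGGCGG in 21, against 33.8%, 12.4% and 32.7% of all 32817 windows of the same length. The units differ: a gene with more than 1 window counts if any of them holds the motif, while the percents are of single windows. A match is a description of letters, not a site at which a factor was measured.

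The libraries held 5.90e+06 to 2.47e+07 unique molecular identifiers (UMIs, which count captured RNA molecules) in 21178 cells, of which 20432 were kept. A level is a gene's UMIs per 10000 UMIs, worked out cell by cell and averaged over a class. UMIs were not divided by transcript length and 5' capture differs between transcripts, so levels are compared between cells more safely than between genes. Cells were clustered without the collagen genes and named from marker genes. This gave 241 fibroblast-like, 7977 keratinocyte-like, 115 endothelial-like, 6219 alpha-beta T-like, 426 Langerhans-like, 319 melanocyte/Schwann-like and 1269 dendritic epidermal T-like cells, the last being the Trdv4 T cells of mouse epidermis. In the fibroblast-like cells, 14 of 14 fibroblast markers were detected. Their summed level was 119 to 187 in the 4 mice with at least 10 such cells, against 2.66 to 5.72 in keratinocyte-like cells. These markers were spread unevenly over the class, as the sub-clusters below show. Between 44 and 119 barcodes of a library also occurred in another library. In keratinocyte-like cells, 1 library of the AG_CPI group had 39 UMIs of the Y-linked gene Ddx3y and the other 5 libraries had 0, a difference that no label explains.

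Keratinocyte-like and fibroblast-like cells together held most of the 26112 collagen UMIs. Keratinocyte-like cells held 45.5% ± 6.46 of the collagen UMIs of a mouse (SD, n = 6, range 37.0% to 56.6%) and fibroblast-like cells 39.5% ± 8.18 (26.4% to 49.4%). The second share came from few cells, since fibroblast-like cells were 0.277% to 1.77% of a library and keratinocyte-like cells 11.2% to 50.5%. Per cell the order was therefore the opposite: collagens took 66.2 to 128 of every 10000 UMIs of fibroblast-like cells and 2.05 to 3.35 of keratinocyte-like cells, without overlap. Endothelial-like cells held 1.78% ± 2.07 of the collagen UMIs and dendritic epidermal T-like cells 2.96% ± 2.64. With the collagen genes kept in the clustering, fibroblast-like cells held 20.4%, keratinocyte-like cells 36.8% and unnamed cells 22.6%, against 4.27% in unnamed cells here. These shares depend on which cells were released and captured, and are not shares of the collagen RNA of intact skin.

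The source differed by collagen type, as counted over all 6 mice. Fibroblast-like cells held 71.1% of the 8407 fibril-forming UMIs and 79.9% of the 2304 beaded-filament UMIs. Keratinocyte-like cells held 92.8% of the 1861 Col7a1 UMIs, 76% of the 5076 network-forming UMIs, 69.6% of the 3341 multiplexin UMIs and 67.6% of the 4388 fibril-associated UMIs. The next largest share of the network-forming UMIs was in unnamed cells (11.3%), ahead of fibroblast-like cells (9.02%). The 703 transmembrane UMIs were split almost evenly, with 43.2% in fibroblast-like and 43.0% in keratinocyte-like cells. Immune cells held 2 distinct fractions: dendritic epidermal T-like cells 14.2% of the fibril-forming UMIs and Langerhans-like cells 13.4% of the fibril-associated UMIs. Both fractions came mainly from the NO_AG mice. Dendritic epidermal T-like cells held 5.99% and 5.80% of all collagen UMIs in the NO_AG mice. Their share was 4.01% and 1.16% in the AG mice, and 0.16% and 0.631% in the AG_CPI mice. Langerhans-like cells held 3.88% and 2.82% in NO_AG, 0.646% and 0.306% in AG, and had no cells in AG_CPI. They were 4.64% and 3.42% of all cells in NO_AG and 1.03% and 0.784% in AG. Both classes thus fell as a share of cells too. Of the 41 genes, 28 had their highest mean level in fibroblast-like cells, 6 in keratinocyte-like, 3 in melanocyte/Schwann-like, 2 in endothelial-like, 1 in dendritic epidermal T-like and 1 in Langerhans-like cells. Among the 19 genes at 0.5 or more per 10000 UMIs in some class, the same tally was 15 in fibroblast-like, 0 in keratinocyte-like and 1 in each of the other 4.

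**Figure D1:**
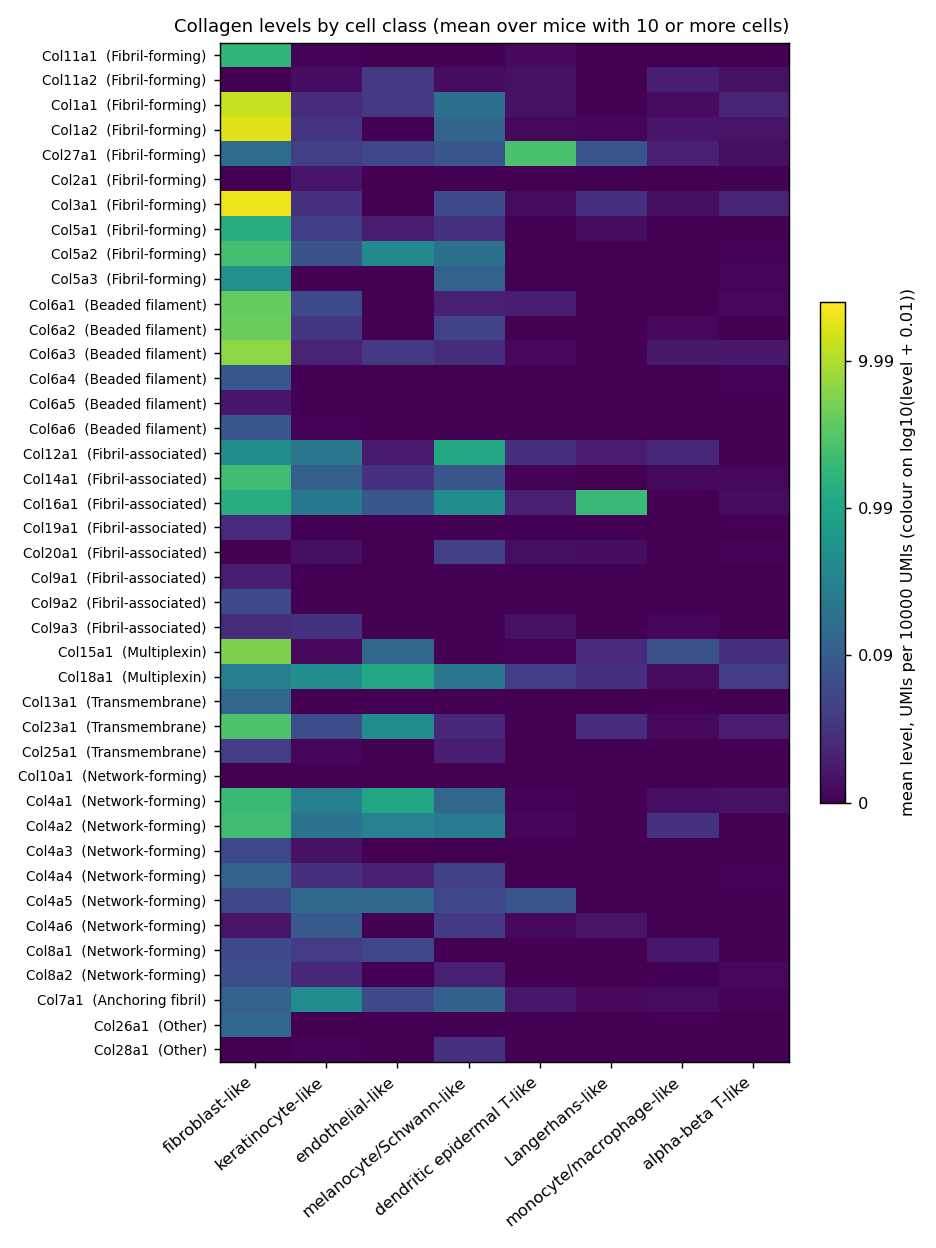
Mean level of each of the 41 collagen genes (rows, grouped by collagen type) in 8 cell classes (columns); colour is log10 of the level per 10000 UMIs plus 0.01, averaged over the mice with at least 10 cells of the class. Col1a1, Col1a2 and Col3a1 stand out in fibroblast-like cells, Col27a1 in dendritic epidermal T-like cells and Col16a1 in Langerhans-like cells.

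The fibril-forming genes Col3a1, Col1a2 and Col1a1, which encode collagen III and the chains of collagen I, had the highest levels in fibroblast-like cells. Col3a1 (chr1:45311538-45349706) stood at 21.1 and 15.2 per 10000 UMIs in the NO_AG mice and 20.9 and 25.1 in the AG mice (20.6 ± 4.06, SD, n = 4). Col1a2 (chr6:4504814-4541544) stood at 22.6 and 12.9 in NO_AG and 14.3 and 18.6 in AG (17.1 ± 4.40). Col1a1 (chr11:94936224-94953042) stood at 19.8 and 9.90 in NO_AG and 9.5 and 12.5 in AG (12.9 ± 4.78). The first NO_AG mouse was highest for both collagen I chains, and the groups overlapped for all 3 genes. A Col3a1 UMI was seen in 84.2% of fibroblast-like cells and a Col1a1 UMI in 42.7%, at a median depth of 3900 UMIs. In alpha-beta T-like cells, which should lack both, the shares were 0.289% and 0.241% at a median of 2576.

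Of the minor fibril-forming chains, which join collagen I fibrils, Col5a2 averaged 2.33, Col11a1 1.70, Col5a1 1.37 and Col5a3 0.529 in fibroblast-like cells. The collagen VI chains followed, with Col6a3 at 6.57 ± 2.16, Col6a2 at 4.23 ± 1.68 and Col6a1 at 3.88 ± 1.90 (SD, n = 4). All 3 were highest in the first NO_AG mouse (9.48, 6.56 and 6.55) and lowest in the second (4.37, 2.57 and 2.04), so the NO_AG mice spanned both AG mice. Col15a1, a multiplexin, varied less: 5.04 and 4.76 in NO_AG, 4.67 and 6.89 in AG (5.34 ± 1.05). The transmembrane collagen gene Col23a1 stood at 2.91 ± 0.707 and the fibril-associated Col14a1 at 2.23 ± 0.262. Col4a1 and Col4a2, the common chains of basement membrane, averaged 2.01 ± 0.364 and 2.19 ± 0.527, more per cell than in keratinocyte-like or endothelial-like cells.

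Among collagen genes, fibroblast-like and keratinocyte-like cells of the same mice differed most in Col3a1, Col1a2 and Col1a1. Of 33 collagen genes with at least 10 UMIs in the 2 classes, 18 were higher in fibroblast-like cells in all 4 mice (24.6% of all 13302 genes) and 6 were lower in all 4 (23.1%). None was called by the exact two-sided sign-flip test over mice with Benjamini-Hochberg adjustment over all genes (0% of all genes). The smallest p that this test can give with 4 mice is 0.125. The log2 difference (on levels plus 0.1) was 7.42 for Col3a1, 7.10 for Col1a2, 6.73 for Col1a1, 5.82 for Col6a3 and 5.70 for Col15a1. It was smaller for the other fibril-forming genes compared, such as Col11a1 (4.10) and Col5a1 (3.31), and for Col4a2 (2.95) and Col4a1 (2.57). The 6 genes on the other side were Col7a1, Col18a1, Col4a5, Col4a6, Col11a2 and Col20a1. The last 2 had 0 UMIs in the 241 fibroblast-like cells and were under 0.01 in keratinocyte-like cells, so their direction cannot be read at this depth. Col7a1 averaged 0.403 in keratinocyte-like and 0.109 in fibroblast-like cells of these mice, and Col18a1, the precursor of endostatin, 0.536 and 0.295.

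The fibroblast-like cells were not uniform in their collagen RNA. They were split into 5 sub-clusters, again without the collagen genes, which are numbered here and described by their leading genes. Sub-cluster 4 (38 cells) had Cxcl13, C3, Clec3b and Pi16 among its leading genes. Sub-cluster 2 (101 cells) was led by Hes5 and Igfbp3, with Sox2 further down, and sub-cluster 3 (50 cells) by Fgf7, Rspo4 and Wif1. Sox2, Rspo4, Wif1 and the Crabp1 of both are genes known from the dermal papilla of hair follicles. The fibroblast marker Dcn was at 0.0912 and 0.0483 in sub-clusters 2 and 3, against 99.9 in sub-cluster 4. Lum, Clec3b, Mfap5 and Pi16 were also under 0.1 in both. Their highest fibroblast markers were Crabp1 (24.86 and 79.56), Ebf1 (19.65 and 21.53) and Apod (28.95 and 10.21). Sub-cluster 0 (32 cells) was led by Myod1, with Myog further down, both regulators of the skeletal muscle lineage, and had Pdgfra at 0.0929. Sub-cluster 1 (20 cells, 14 of them from the first NO_AG mouse) was led by the contractile genes Myh11 and Tagln and by Lrrc15. The class name therefore covers cells with muscle-lineage genes too.

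All collagens together took 296 of every 10000 UMIs in sub-cluster 1, 186 in sub-cluster 4, 54.7 and 52.6 in sub-clusters 2 and 3, and 21.2 in sub-cluster 0. Col1a1 had the widest range, at 87.6 in sub-cluster 1 and 36.5 in sub-cluster 4 but 0.671 in sub-cluster 2, 1.12 in sub-cluster 3 and 0.528 in sub-cluster 0. Col3a1 stood at 54.6 and 68.0 in sub-clusters 1 and 4, and at 7.84 and 7.44 in sub-clusters 2 and 3. Sub-clusters 2 and 3 were the high ones for Col15a1, at 6.13 and 8.14 against 0.628 in sub-cluster 4. They were also high for Col23a1, at 3.25 and 5.40 against 0.115. Col11a1, a chain that starts thin fibrils, stood at 1.83 and 2.43 in sub-clusters 2 and 3 and had 0 UMIs in sub-cluster 4. In sub-cluster 1 it stood at 5.38, but 60 of its 64 UMIs there came from the 14 cells of the first NO_AG mouse. Col5a3 went the other way, at 1.71 and 1.65 in sub-clusters 0 and 4 and 0.0219 in sub-cluster 2. Between mice, Col3a1 in sub-cluster 4 stood at 44.6 and 77.1 in NO_AG and 73.6 and 90.2 in AG, and in sub-cluster 2 at 8.78 and 6.98 in NO_AG and 7.67 and 8.26 in AG, so each of these 4 mice was higher in sub-cluster 4.

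**Figure D2:**
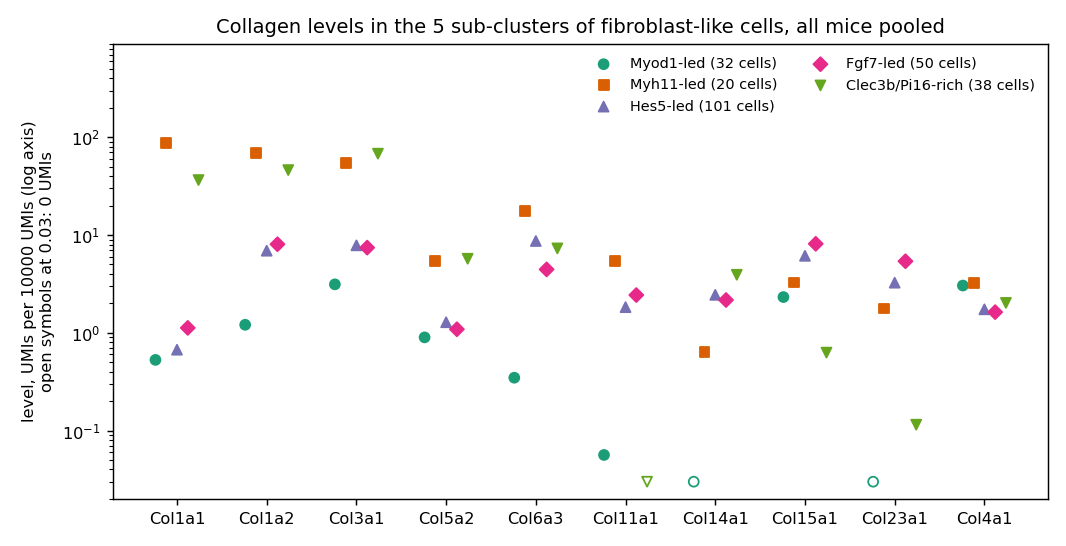
Level of 10 collagen genes (UMIs per 10000, log axis) in the 5 sub-clusters of the 241 fibroblast-like cells, each point a mean over all cells of the sub-cluster, with open symbols at 0.03 for 0 UMIs. Sub-clusters 0 to 4 are the Myod1-led, Myh11-led, Hes5-led, Fgf7-led and Clec3b/Pi16-rich ones; Col1a1 is above 30 in sub-clusters 1 and 4 only and near 1 elsewhere, while Col15a1 and Col23a1 are highest in sub-clusters 2 and 3.

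The balance of the 2 collagen I chains differed between sub-clusters. A collagen I molecule usually holds more of the Col1a1 product than of the Col1a2 product. In sub-cluster 4, Col1a1 gave 534 and Col1a2 673 UMIs, so Col1a1 was 44.2% of the pair (95% Wilson interval 41.5% to 47.1%, counting error only). In sub-cluster 2 it gave 30 against 314 UMIs, 8.72% of the pair (6.18% to 12.2%), and in sub-cluster 3 it gave 25 against 186, 11.8% (8.16% to 16.9%). Sub-cluster 0, with 8 against 25 UMIs, was at 24.2% (12.8% to 41.0%) and sub-cluster 1, with 840 against 697, at 54.6%. The low share of sub-clusters 2 and 3 held in each of the 4 mice with at least 10 fibroblast-like cells. It was 7.53% and 9% in NO_AG and 12.3% and 4.55% in AG in sub-cluster 2, against 41.4%, 41.4%, 51.9% and 44.2% in sub-cluster 4, with no overlap. A Col1a2 UMI was seen in 84 of the 101 cells of sub-cluster 2 and a Col1a1 UMI in 25. Levels of 2 genes per UMI are not corrected for capture, but the contrast between sub-clusters is within the same pair. The other chain pairs differed less: Col6a1 was 44.6% of the Col6a1 and Col6a2 UMIs in sub-cluster 2 and 68.9% in sub-cluster 4, and Col4a1 was 45.0% and 65.9% of its pair with Col4a2.

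Genes that fold, trim and crosslink collagen were also unequal across the sub-clusters. Serpinh1, the collagen chaperone HSP47, was in all 5, at 6.66 in sub-cluster 2, 7.26 in sub-cluster 4 and 10.8 in sub-cluster 1. Pcolce, which enhances removal of the C-terminal propeptide, was highest in sub-cluster 3 (10.4). Loxl1, a crosslinking oxidase, stood at 8.16 in sub-cluster 4 and 1.18 in sub-cluster 2, and the matrix gene Fn1 at 16.9 and 0.123. Across classes, Serpinh1 averaged 6.46 in fibroblast-like, 1.52 in endothelial-like, 0.821 in keratinocyte-like and 0.0103 in alpha-beta T-like cells. Pcolce averaged 6.81 in fibroblast-like and 0.00455 in keratinocyte-like cells, with 0 UMIs in endothelial-like cells. Of the breakdown genes, the collagenase-activating protease Mmp14 averaged 4.32 and the inhibitor Timp2 5.68 in fibroblast-like cells, with Timp2 at 4.65 in endothelial-like cells. The collagen receptor Ddr2 averaged 1.90 in fibroblast-like and 0.0303 in keratinocyte-like cells.

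In keratinocyte-like cells the highest collagen genes were Col18a1 and Col7a1, both of the basement membrane zone. Col18a1 (chr10:77052178-77166548) averaged 0.461 ± 0.160 per 10000 UMIs (SD, n = 6), Col7a1 (chr9:108953586-108984875) 0.424 ± 0.0800, Col4a1 0.281 ± 0.131, Col16a1 0.226, Col12a1 0.214 ± 0.0325 and Col4a2 0.192. Col7a1 ranged from 0.291 to 0.519 over the 6 mice. Col4a5 (0.134) and Col4a6 (0.0797), chains of the collagen IV form of epithelial basement membranes, and Col7a1 were the members above 400 UMIs whose highest mean level was in keratinocyte-like cells. Against alpha-beta T-like cells of the same 6 mice, 16 of 26 collagen genes were higher in every mouse (31.9% of all genes) and Col15a1 was lower in every mouse (23.2%). None was called (0%), since the smallest exact p with 6 mice is 0.0312, which adjusts to 0.0568 over all genes. The log2 difference was 2.36 for Col7a1, 2.05 for Col18a1 and 1.79 for Col4a1. Col1a1, Col1a2, Col3a1 and Col6a3 did not separate the classes in every mouse, and Col1a1, for example, averaged 0.0172 in keratinocyte-like and 0.0114 in alpha-beta T-like cells.

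Within the keratinocyte-like cells, collagen RNA lay mainly in 2 clusters. Cluster 2 (1349 cells, with Krt15, Sox9 and Lhx2, genes known from the hair follicle, among its 10 leading genes) was 16.9% of the class and held 54.0% of its collagen UMIs. Cluster 1 (1115 cells, led by Fcgbp and Clca3a2, with the basal keratins Krt14 and Krt5 among its 10 leading genes) was 14.0% of the class and held 19.1%. They divided the genes between them. Col4a1 stood at 1.36 in cluster 2 and 0.0561 in cluster 1, Col4a2 at 1.00 and 0.0772, and Col14a1 at 0.703 and 0.00279. Col7a1 was higher in cluster 1 (1.11) than in cluster 2 (0.466), as was Col4a6 (0.301 and 0.118). Col18a1 was high in both (0.696 in cluster 1 and 1.47 in cluster 2) and at 0.129 in cluster 5, led by Krt77 and Krt10 of the differentiated layers. Col7a1 in cluster 1 stood at 1.09 and 1.08 in the NO_AG mice and 1.18 and 0.997 in the AG mice, the last from 15 cells, so the groups overlapped.

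In endothelial-like cells the highest collagen genes were Col18a1 and Col4a1, both of vascular basement membrane. Col18a1 stood at 0.790, 1.70 and 0.884 in the first and second NO_AG and the second AG mouse, the 3 mice with at least 10 such cells (1.12 ± 0.497, SD). Col4a1 stood at 1.11, 1.23 and 0.579 (0.973 ± 0.346), and Col23a1 at 0.284, 0.736 and 0.302. All 3 genes were higher than in alpha-beta T-like cells in each of the 3 mice, with log2 differences of 3.16, 3.26 and 2.18, as 3 of 8 collagen genes were (22.9% of all genes). None was called (0%), and the smallest exact p with 3 mice is 0.25. Col18a1 was the collagen gene that was higher in endothelial-like than fibroblast-like cells in all 3 mice (log2 difference -1.87, fibroblast-like minus endothelial-like, 16% of all genes), while 19 of 21 were lower in endothelial-like cells in all 3 (26.6%), again with 0 calls (0% of all genes). Only 12 to 48 cells carried each value, and the summed level of 17 keratinocyte markers in them was 8.62, 38.4 and 164.6. The part of that signal in these collagen levels was not tested.

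The collagen gene of the Trdv4 T cells was Col27a1, a fibril-forming gene at chr4:63214004-63334991. Of its 1499 UMIs, 1192 were in dendritic epidermal T-like cells, and 51.9% of those cells had at least 1 UMI, against 0.0965% of alpha-beta T-like cells of similar depth (medians of 2356 and 2576 UMIs). The level was 2.61 ± 1.5 (SD, n = 5) against 0.00351. In the 5 mice with at least 10 such cells it was higher than in alpha-beta T-like cells in 5 of 5, with a log2 difference of 4.51 ± 0.912 (SD). It was the single gene of 8 with that direction in every mouse (15.3% of all genes), and Col15a1 and Col1a1 were lower in every mouse (13.6%). Col15a1 had 31 and Col1a1 14 UMIs in the 2 classes together, too few to read their direction. None of the 8 was called (0%), and with 5 mice the exact p of Col27a1 was the smallest possible, 0.0625 (0.216 adjusted over all genes). Langerhans-like cells, the other immune cells of the epidermis, had Col27a1 at 0.0701.

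Langerhans-like cells had Col16a1, a fibril-associated gene at chr4:130047840-130099283, at 1.96 ± 1.61 (SD, n = 4). Its place beside fibroblast-like cells depended on the group: it stood at 3.75 and 2.87 in the NO_AG mice, against 1.07 and 1.30 in their fibroblast-like cells, and at 0.817 and 0.387 in the AG mice, against 1.44 and 1.41. A Col16a1 UMI was seen in 46.0% of Langerhans-like cells at a median of 4774 UMIs and in 0.113% of alpha-beta T-like cells at a median of 2576. The 1151 monocyte/macrophage-like cells had 0 Col16a1 UMIs, as did the 274 cells of cluster 19, whose leading genes mixed the macrophage genes Folr2 and Mrc1 with the dendritic cell genes Ccl22 and Ccr7. In melanocyte/Schwann-like cells Col12a1, which coats collagen I fibrils, stood at 1.65 and 1.04 in NO_AG and 1.73 and 0.111 in AG (1.13 ± 0.748, n = 4). It came from the 218 cells of cluster 21, led by Dct and Pmel (1.72, 121 UMIs), and not from the 101 cells of cluster 12 (0.0570, 2 UMIs). Keratinocyte markers summed to 24.3 to 156 in that class, and their part in the Col12a1 level was not tested.

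The remaining genes were sparse. Of the 41, 22 stayed below 0.5 per 10000 UMIs in every named class, among them Col7a1, Col4a5 and Col4a6 above. Col8a1, a short-chain network collagen, had 170 UMIs, Col9a3 92, Col4a4 86 and Col8a2 66. Col11a2, Col20a1, Col26a1, Col25a1, Col13a1, Col4a3, Col6a6 and Col2a1 had 11 to 33 each. Col10a1, Col19a1, Col28a1, Col6a4, Col6a5, Col9a1 and Col9a2 had under 10, and no gene had 0. Col2a1 and Col10a1, the collagens of cartilage, had 11 and 1 UMIs among all cells.

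The non-collagen genes whose level followed a collagen gene most closely over 45 pairs of class and mouse were, for Col1a1, Scube3 (Pearson r = 0.987), Medag, Ddr2, Ptprd and Runx1t1 (0.974). For Col4a1 they were Igfbp7 (0.973), Ddah2, Megf6 and the laminin genes Lamb2 and Lamb1 (0.953). For Col7a1 they were Cd109 (0.953), Ephb3, Clca2, Irx5 and Zbtb7c (0.910). The points share libraries and classes and carry no p. Among collagen genes, Col1a1 was nearest to Col1a2 (0.988) and Col3a1 (0.986). Col6a1 and its neighbour on chromosome 10, Col6a2, had r = 0.986. Col4a1 and Col4a2, which start 21 bases apart on opposite strands of chromosome 8, had r = 0.875, while Col4a1 was nearer to Col23a1 (0.903). Col4a5 and Col4a6, 1309 bases apart on chromosome X, had r = 0.576.

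Between AG and NO_AG, no collagen gene passed the test in fibroblast-like cells. The filter on low levels asked for at least 10 UMIs over the libraries fitted and at least 0.1 in 2 of them. Of the 21 genes that passed it, 0 were called by limma at an adjusted p of 0.05, against 23 of all 8509 genes (0.27%). None had an unadjusted p under 0.05, against 493 of all genes. The median log2 change was -0.08 over the 21 and -0.06 over all genes. Col4a1 was at 2.36 and 2.28 in NO_AG and 1.74 and 1.65 in AG, without overlap (log2 change -0.43, SE 0.30, adjusted p = 0.904). Col16a1 was at 1.07 and 1.30 in NO_AG and 1.44 and 1.41 in AG, also without overlap (0.25, SE 0.33). Col5a3 (-0.40) and Col26a1 (-0.60) were the other 2 of 3 genes lower in both AG mice, against 19.7% of all genes, and Col16a1 the 1 higher in both, against 14.9%. With a mouse left out, the change ran from -0.52 to -0.34 for Col4a1 and from -0.51 to -0.28 for Col5a3. It ran from -0.88 to -0.32 for Col26a1 and from 0.14 to 0.35 for Col16a1. For Col1a1 the change was -0.36 (SE 0.28), for Col1a2 -0.06 and for Col3a1 0.35 (SE 0.22), all with adjusted p of 0.900 or more by limma.

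The makeup of the class differed between these mice. The summed level of the 14 fibroblast markers was 120.4 and 118.6 in NO_AG and 181.4 and 187.2 in AG, without overlap, and that of 10 mural markers 6.03 and 25.4 in NO_AG and 9.28 and 2.12 in AG. Their part in the collagen values was not tested. Sub-cluster 0, low in collagen, was 15.5% and 22.6% of fibroblast-like cells in NO_AG and 3.70% and 7.41% in AG. The collagen-rich sub-cluster 1 was 16.7% in the first NO_AG mouse and 3.70% to 4.84% in the other 3. The other collagen-rich one, sub-cluster 4, was 15.5% and 8.06% in NO_AG and 20.4% and 18.5% in AG. Without sub-cluster 0 the Col5a3 difference was 0.40, and in sub-cluster 3 alone that of Col4a1 was 0.03, so both signs turned. The AG_CPI mice gave 8 and 6 fibroblast-like cells, too few to be compared, with collagens at 82.4 and 121.5 per 10000 UMIs. Leaving out a mouse left 0 collagen genes called, while the count of all genes called was 439 without the first AG mouse, 129 without the second and 14 without the second NO_AG mouse.

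**Figure D3:**
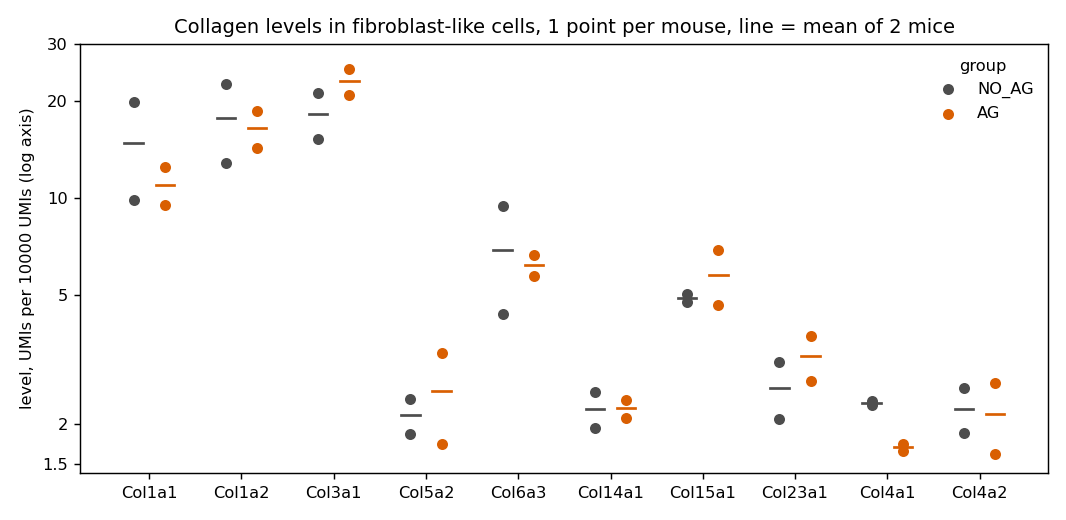
Level of 10 collagen genes in fibroblast-like cells of the 2 NO_AG and 2 AG mice (UMIs per 10000, log axis), each point a mouse and each line the mean of 2 mice. The first NO_AG mouse is highest for Col1a1, Col1a2 and Col6a3, and only Col4a1 among the genes drawn separates the groups.

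Few genes of any kind were called in fibroblast-like cells (0.27%), so the lists of genes around collagen synthesis, with 0 called, do not stand apart. By limma, 0 genes passed among the 15 of 18 chaperones and modifying enzymes that could be tested, the 8 of 12 processing and crosslinking genes, the 10 of 13 breakdown genes, the 5 of 8 receptors, the 9 of 10 matrix partners and the 10 of 12 TGF-beta genes. The processing and crosslinking genes had a median log2 change of 0.69, against -0.06 over all genes, with Loxl1 at 0.86, Adamts2, a remover of N-terminal propeptides, at 0.78 and Pcolce at 0.60, none past the threshold. Fn1 was at 0.96 (adjusted p = 0.443). Loxl1 and Fn1 were high in sub-cluster 4, whose share was larger in both AG mice, and its part in these values was not tested. In the same cells and fit, 5 of 11 interferon-gamma response genes rose, against 15 of all 8509 genes, in a list chosen with earlier results of these mice known: H2-K1 by 2.62, Gbp2 by 2.51, H2-D1 by 1.96, Psmb8 by 1.89 and B2m by 1.66 on the log2 scale. Called higher in AG than in NO_AG were 2 of 12 genes of that list in keratinocyte-like cells, against 27 of all 8340. In dendritic epidermal T-like cells they were 0 of 11, against 0 of all 7870. In Langerhans-like cells they were 4 of 11, against 31 of all 7278.

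In keratinocyte-like cells no collagen gene was called between AG and NO_AG. Of 9 genes that passed the filter, 0 were called by limma, against 28 of all 8340 genes (0.336%). Of these, 2, Col14a1 and Col4a6, passed the filter through the NO_AG mice alone, so their lower level in AG was fixed by the filter and is only described. Of the other 7, all had a lower mean in AG, and 3 had an unadjusted p under 0.05, against 622 of all genes. Lower in both AG mice were 5 of the 7, against 32% of all genes. The median log2 change of the 7 was -0.36, against -0.01 over all genes. Col4a2 was at 0.255 and 0.323 in NO_AG and 0.102 and 0.135 in AG (log2 change -0.78, SE 0.18, adjusted p = 0.283). Col4a1 was at 0.352 and 0.384 in NO_AG and 0.137 and 0.188 in AG (-0.78, SE 0.32, adjusted p = 0.653). Col14a1 was at 0.266 and 0.124 in NO_AG and 0.0590 and 0.0513 in AG (-0.85, SE 0.26). Both AG mice lay below both NO_AG mice for Col4a1, Col4a2, Col16a1 (-0.69), Col4a5 (-0.36) and Col18a1 (-0.30), and for Col14a1 and Col4a6 (-0.65) with the limit given above. Col7a1 overlapped, at 0.481 and 0.392 in NO_AG and 0.449 and 0.291 in AG (-0.14, SE 0.24).

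The clusters that held most of the collagen RNA also made up a smaller share of the class in both AG mice. Cluster 2 was 20.8% and 25.2% of keratinocyte-like cells in NO_AG and 17.4% and 6.32% in AG, and cluster 1 was 23.4% and 18.8% in NO_AG and 14.2% and 0.765% in AG. The second AG mouse had most of its keratinocyte-like cells in clusters 33 (led by Krt6a and Krt16) and 28 (led by Stfa3 and Defb6). Its median depth was 2377 UMIs, against 6849 in the first AG mouse. An alternative chosen after seeing the data gave equal weight to the 7 clusters shared by these mice. They leave out clusters 28 and 33, and so most keratinocyte-like cells of the second AG mouse. Cluster 1 entered with 15 cells of that mouse. With equal weights the log2 change was -0.16 for Col4a1, -0.26 for Col4a2 and -0.11 for Col16a1. It was 0.18 for Col18a1, 0.28 for Col12a1 and 0.31 for Col7a1, these 3 having been -0.30, -0.09 and -0.14 over all cells. The part of the cells left out in these values was not tested. Over all cells, leaving out a mouse put the change between -0.87 and -0.70 for Col4a2 and between -0.90 and -0.68 for Col4a1. The sizes for Col16a1, Col4a5 and Col18a1 depended on the second AG mouse. Without it the change was -0.44 for Col16a1, -0.12 for Col4a5 and -0.10 for Col18a1, and without the first AG mouse it was -0.60 for Col4a5 and -0.51 for Col18a1. Leaving out a mouse again left 0 collagen genes called, with all genes called at 85 without the first AG mouse, 0 without the second, and 8 and 11 without each NO_AG mouse. In cluster 2 alone the change was -0.10 for Col4a1 and -0.26 for Col4a2.

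**Figure D4:**
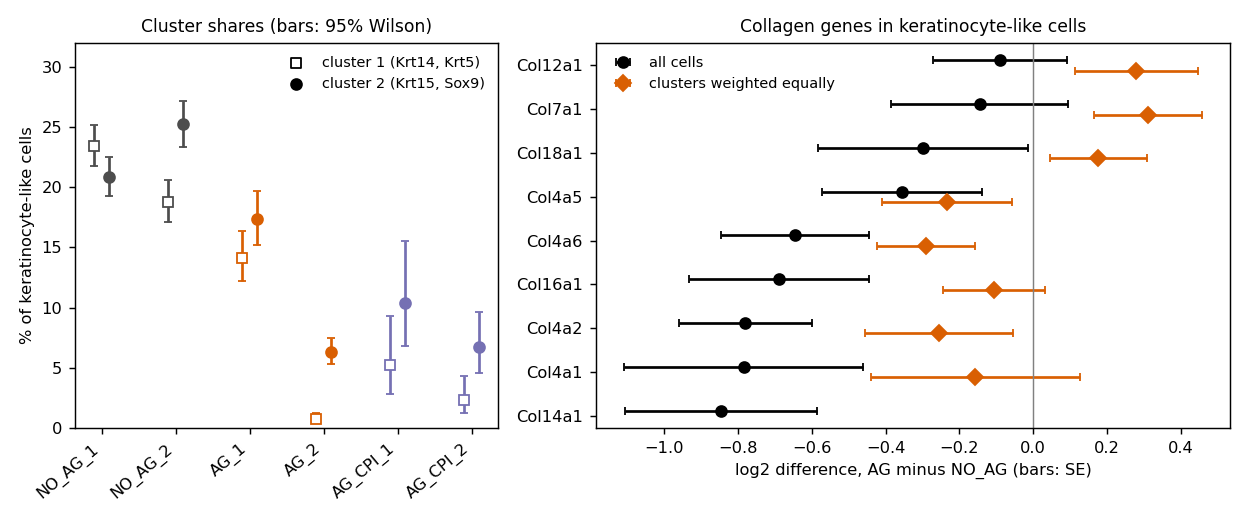
Left, clusters 1 and 2 as a percent of keratinocyte-like cells in each mouse, with 95% Wilson intervals. Right, log2 change from NO_AG to AG with its standard error for collagen genes over all keratinocyte-like cells and with 7 clusters weighted equally. The changes near -0.8 of Col4a1 and Col4a2 are -0.16 and -0.26 with equal weights, where Col14a1 did not pass the filter on low levels. The 7 clusters leave out clusters 28 and 33, which hold most keratinocyte-like cells of the second AG mouse.

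AG_CPI keratinocyte-like cells, 192 and 388 of them, were compared with both groups, which share samples with the comparison above. Against AG, 0 of 9 collagen genes were called (0 of all genes, 0%). At an unadjusted p under 0.05 there were 722 genes and 0 collagen genes. Col4a2 was higher in both AG_CPI mice (0.194 and 0.145, log2 change 0.31, 14.5% of all genes) and Col14a1 lower in both (0.0423 and 0.0387, -0.14, 18.5%). With a mouse left out, the change ran from 0.16 to 0.46 for Col4a2 and from -0.20 to -0.10 for Col14a1. Against NO_AG, 0 were called (15 of all genes, 0.18%). Apart from Col14a1 (-0.99) and Col4a6 (-0.63), which again passed the filter through NO_AG alone, 4 of 7 were lower in both AG_CPI mice, against 34.7% of all genes. These were Col16a1 (-0.81), Col18a1 (-0.78), Col4a2 (-0.47) and Col4a5 (-0.37). The median over the 7 was -0.37, against -0.02 over all genes. Without the first AG_CPI mouse Col18a1 was at -1.18, and without the second Col18a1 was at -0.38 and Col4a5 at -0.22. Clusters 1 and 2 were 5.21% and 2.32%, and 10.4% and 6.70%, of these cells in the AG_CPI mice. With equal weights for the 4 clusters shared by these mice, which leave out cluster 1, Col4a2 was at 0.29 and Col4a5 at 0.15, so their signs turned. Without the first AG_CPI mouse or either NO_AG mouse, 1 gene in all was called against NO_AG and no collagen gene.

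In dendritic epidermal T-like cells Col27a1 was lower in both AG mice, although the test did not call it. It stood at 4.56 and 3.60 in NO_AG and 2.49 and 1.53 in AG, from 597, 410, 147 and 34 UMIs, and at 0.882 in the second AG_CPI mouse, from 3 UMIs. The groups did not overlap, as for 28.8% of all genes in that direction. The log2 change was -0.93 (SE 0.26, adjusted p = 0.548 by limma), with 0 of all 7870 genes called (0%) and 637 at an unadjusted p under 0.05. A Col27a1 UMI was in 60.3% and 59.2% of cells in NO_AG and 39.5% and 22.5% in AG, at medians of 2300, 2816, 2277 and 1933 UMIs. With each cell thinned to 1500 UMIs the levels were 4.50 and 3.79 in NO_AG and 2.31 and 1.62 in AG. Trdv4 itself stood at 59.4 and 55.6 in NO_AG and 56.9 and 44.7 in AG. The summed level of 5 markers of these cells was 184.3 and 185.6 in NO_AG and 193.9 and 130.5 in AG, and that of 17 keratinocyte markers was 7.93 and 7.97 in NO_AG and 10.4 and 12.8 in AG. The part of either in the difference was not tested. Without the first AG mouse Col27a1 was called (-1.26, adjusted p = 2.58e-14) along with 2449 genes, and without the second (-0.61, adjusted p = 0.00119) along with 881. In those fits the lone AG mouse is assumed to vary like the other group, and over all alternatives the adjusted p ran from 2.58e-14 to 1.00.

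In Langerhans-like cells Col16a1 fell in AG. This comparison was added after the levels were seen. Col16a1 stood at 3.75 and 2.87 in NO_AG and 0.817 and 0.387 in AG, from 358, 196, 21 and 9 UMIs. The groups did not overlap, as for 29.8% of all genes in that direction. The log2 change was -2.27 (SE 0.31, adjusted p = 0.0251 by limma), in 1 of 1 collagen genes tested and 49 of all 7278 genes (0.673%). With a mouse left out, a lone mouse is assumed to vary like the pair it is compared with, and these fits lend the call no independent support. It was called in each of the 4 (adjusted p from 1.47e-07 to 0.0327), where the count of all genes called was 1184 without the first AG mouse, 1266 without the second and 32 without the first NO_AG mouse, and not without the filter on low levels (adjusted p = 0.122). A Col16a1 UMI was in 58.8% and 40% of cells in NO_AG and 22.9% and 11.4% in AG, although the AG cells were deeper (medians of 4146 and 5423 UMIs against 9011 and 7653). Only 35 cells carried the value in each AG mouse. In the same order, the summed Langerhans markers stood at 82.1, 95.1, 110.2 and 129.3, Cd207, which encodes langerin, at 21.9, 21.2, 16.3 and 9.04, and monocyte/macrophage markers at 11.2, 10.4, 11.3 and 35.8. The part of a changed cell makeup in the difference was not tested, and the AG_CPI mice gave 0 Langerhans-like cells.

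**Figure D5:**
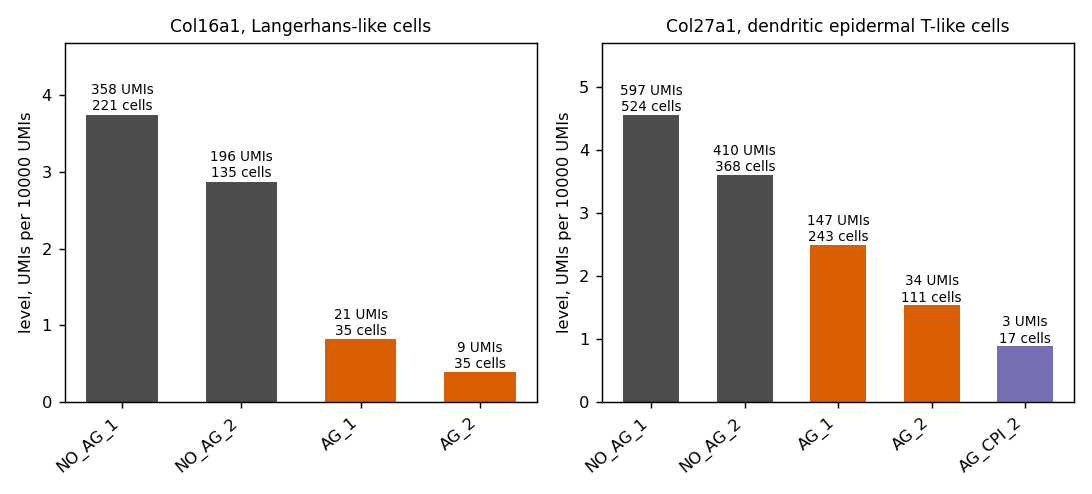
Level (UMIs per 10000) of Col16a1 in Langerhans-like cells of 4 mice and of Col27a1 in dendritic epidermal T-like cells of 5 mice, each bar a mouse with its UMIs and cells printed. For both genes the 2 AG mice lie below the 2 NO_AG mice.

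Endothelial-like cells could not be compared between groups, because only the second AG mouse had at least 10 of them outside NO_AG.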

How the data were processed

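Single cells of the skin of 6 mice were measured with the 10x Genomics 5' kit, per the labels' protocols. Per the submitters' processing notes, Cell Ranger 3.1 and the mm10 genome were used. The authors deposited log10 values, in which each count had first been scaled to 10000 UMIs per cell and raised by 1. No header says so. On undoing this, 100% of values became whole UMIs (within 0.02 of a UMI), against 65.7% to 68.3% under the natural log. The deposited cells held 1501 to 14995 UMIs each.

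Cells needed 200 genes and at most 20% mitochondrial UMIs (81 failed), and 665 simulated-doublet calls (3.15%) were removed. The remaining cells were clustered (2000 variable genes, of which 1956 were left after collagen and collagen-pathway genes were taken out, 30 principal components, 15 neighbours, Leiden resolution 1, 50 clusters) in Python 3.11.15 with python-igraph 0.11.9 and named from marker lists. The score used for naming was settled after the leading genes of clusters had been seen.

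Levels were averaged per mouse and class with at least 10 cells. Groups were compared with limma 3.58.1 in R 4.3.3 on log2 of the TMM-scaled mean plus 0.1. Benjamini-Hochberg adjustment ran over all genes with at least 10 UMIs and at least 0.1 in 2 libraries, with calls at an adjusted p of 0.05. Classes were compared with an exact two-sided sign-flip test over mice, adjusted over all genes with at least 10 UMIs. The code was tested on simulated data. Intervals are 95% Wilson intervals and cover counting error only. Coordinates and exons are from the GENCODE annotation of mm10.

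The genes, lists and classes were chosen with earlier results of these data known. Named were genes at 0.5 per 10000 UMIs or more in a class, all called genes, and those without overlap between groups (at most 10 per comparison). Alternatives were another scaling, pseudocount (0.5), filter, replicate block, clustering resolution (0.5), clustering with collagen genes or doublets kept, and leaving out each mouse. Single clusters, clusters weighted equally and the Langerhans-like comparison were added after the data were seen.

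The planned adjustment of the class tests over the collagen genes alone was replaced by adjustment over all genes.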

Additional observations from a re-analysis of the deposited data

Results flagged for a closer look

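For Col16a1, which encodes a fibril-associated collagen, the AG and NO_AG mice separated in opposite directions in different cells of the same mice. Both AG mice were above both NO_AG mice in fibroblast-like cells (log2 change 0.25, SE 0.33) and below them in keratinocyte-like cells (-0.69, and -0.11 with clusters weighted equally) and Langerhans-like cells (-2.27). The changes in fibroblast-like and keratinocyte-like cells were 0.936 apart on the log2 scale, and those in fibroblast-like and Langerhans-like cells 2.52 apart. Neither difference was tested, and the decrease in Langerhans-like cells alone was called.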

How the results depend on the processing

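No collagen gene was called in fibroblast-like or keratinocyte-like cells under any alternative run. In dendritic epidermal T-like cells, leaving out a mouse gave 0 to 1 called. In Langerhans-like cells 0 were called with no filter on low levels (Col16a1 -2.27, adjusted p = 0.122 by limma), where more genes were tested and 0 of all genes were called. With collagen genes kept in the clustering, fibroblast-like cells held 20.4%, keratinocyte-like cells 36.8% and unnamed cells 22.6% of the collagen UMIs, and fibroblast-like cells were too few for the group comparison. Collagen genes higher in endothelial-like than alpha-beta T-like cells in every mouse numbered 3 to 5 when a mouse was left out. Among the genes named because the groups did not overlap, signs turned for 12 values, and the cause was not tested. Genes that overlapped were not counted, and of these Col7a1 and Col12a1 turned with equal weights between AG and NO_AG in keratinocyte-like cells (0.31 and 0.28). Between AG and NO_AG these were, in fibroblast-like cells, Col4a1 in sub-cluster 3 alone (0.029) and Col5a3 without sub-cluster 0 (0.40), and, in keratinocyte-like cells, Col4a6 in cluster 2 alone (0.53) and Col18a1 in cluster 1 alone (0.61) and with clusters weighted equally (0.18). Between AG_CPI and AG they were Col4a2 with collagen genes kept in the clustering (-0.10) and Col14a1 in cluster 2 alone (0.13) and with equal weights (0.073). Between AG_CPI and NO_AG they were Col4a6 (0.16) and Col4a2 (0.42) in cluster 2 alone, and Col4a2 (0.29) and Col4a5 (0.15) with equal weights.

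The count of all genes called moved more. In fibroblast-like cells the 23 became 8 with no filter, 9 at resolution 0.5, 11 in sub-cluster 3 alone and 14 to 439 without a mouse. In keratinocyte-like cells, AG against NO_AG, the 28 became 0 with no filter, 17 in cluster 1 alone, 0 in cluster 2 alone, 85 with equal weights and 0 to 85 without a mouse. Against NO_AG, the 15 of AG_CPI became 7 with a pseudocount of 0.5, 0 with no filter, 27 with collagen genes kept in the clustering, 26 with equal weights, 0 in cluster 2 alone and 1 to 19 without a mouse. Against AG, its 0 became 3 with collagen genes kept in the clustering and 0 to 2 without a mouse. In Langerhans-like cells the 49 became 32 to 1266 without a mouse. With the replicate block, 0 collagen genes were called in fibroblast-like, keratinocyte-like and dendritic epidermal T-like cells and 1 in Langerhans-like cells, as without it, while all genes called numbered 17, 29, 39 and 385 between AG and NO_AG and 36 for AG_CPI against NO_AG. Deviations of same-numbered mice were correlated at -0.0490 to 0.141 in keratinocyte-like, fibroblast-like and dendritic epidermal T-like cells. Each group gave 1 deviation per gene, so this cannot tell whether the replicate numbers pair the mice. Langerhans-like cells were not examined in this way. In fibroblast-like cells, which numbered 27 to 84 per mouse in the mice compared, 20 of the 41 collagen genes did not pass the filter and were not tested.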
